A study of Homo sapiens with 16 samples.

Results

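The secreted inflammatory signals of MCF10A cells, a non-tumorigenic human mammary epithelial line, were followed through 10 genes: the chemokines IL8 (CXCL8 in RefSeq), CXCL1, CXCL2, CXCL3, CXCL5 and CCL20, and the cytokines IL1A, IL1B, IL6 and LIF. The genes were taken by symbol, and each matched 1 row of the array, measured by a single probe, so that 10 of 20589 rows were followed. The cells were exposed to 1 µM of a small-molecule inhibitor of the receptor tyrosine kinase HER2 in medium containing EGF, insulin and hydrocortisone. RNA from parallel cultures was hybridized to Illumina human Ref8v2 arrays, with 1 array at each of 16 time points spaced 3 h apart, the first at 0 h from untreated cells and the last at 45 h. No time point had a replicate, and no untreated cultures were followed alongside. Fresh medium was given together with the inhibitor, so the effects of the inhibitor, of the medium and of time in culture cannot be told apart.

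Chemokines are small secreted proteins that draw leukocytes along a gradient. The CXC chemokines studied here act on neutrophils through the receptors CXCR1 and CXCR2, CCL20 draws dendritic cells and lymphocytes through CCR6, and the IL-1 cytokines and the IL-6 family act on neighbouring cells through IL1R1 and through receptors that share the gp130 chain and signal to STAT3. Epithelial cells switch these genes on rapidly through the transcription factor NF-kappaB, and most of the messages are short-lived.

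Between 10325 and 10889 rows were above background on each array, meaning a detection p under 0.05 against 708 negative control probes, and array medians ran from 210.4 to 253.9 in intensity. Levels below are log2 normalized intensities, on which a step of 1 is a doubling, and they compare time points of the same probe only. IL8, CXCL1, CCL20 and LIF were above background on all 16 arrays, and CXCL3 and IL1B on 15. CXCL2 was above background on 6 arrays, IL1A on 4, and CXCL5 and IL6 on 1 each. The 8 genes above background on at least 3 arrays were tested. IL1A reached that number only through the first 4 time points, so that a difference between those and later arrays was built into its passing. Where a probe was not above background throughout a group of arrays, the fold is a bound, set against the higher of its own level and that of the dimmest probe above background on the same array. Folds and bounds are those of background-corrected values, and without that correction the log2 range of each of the 10 genes was smaller.

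**Figure D1:**
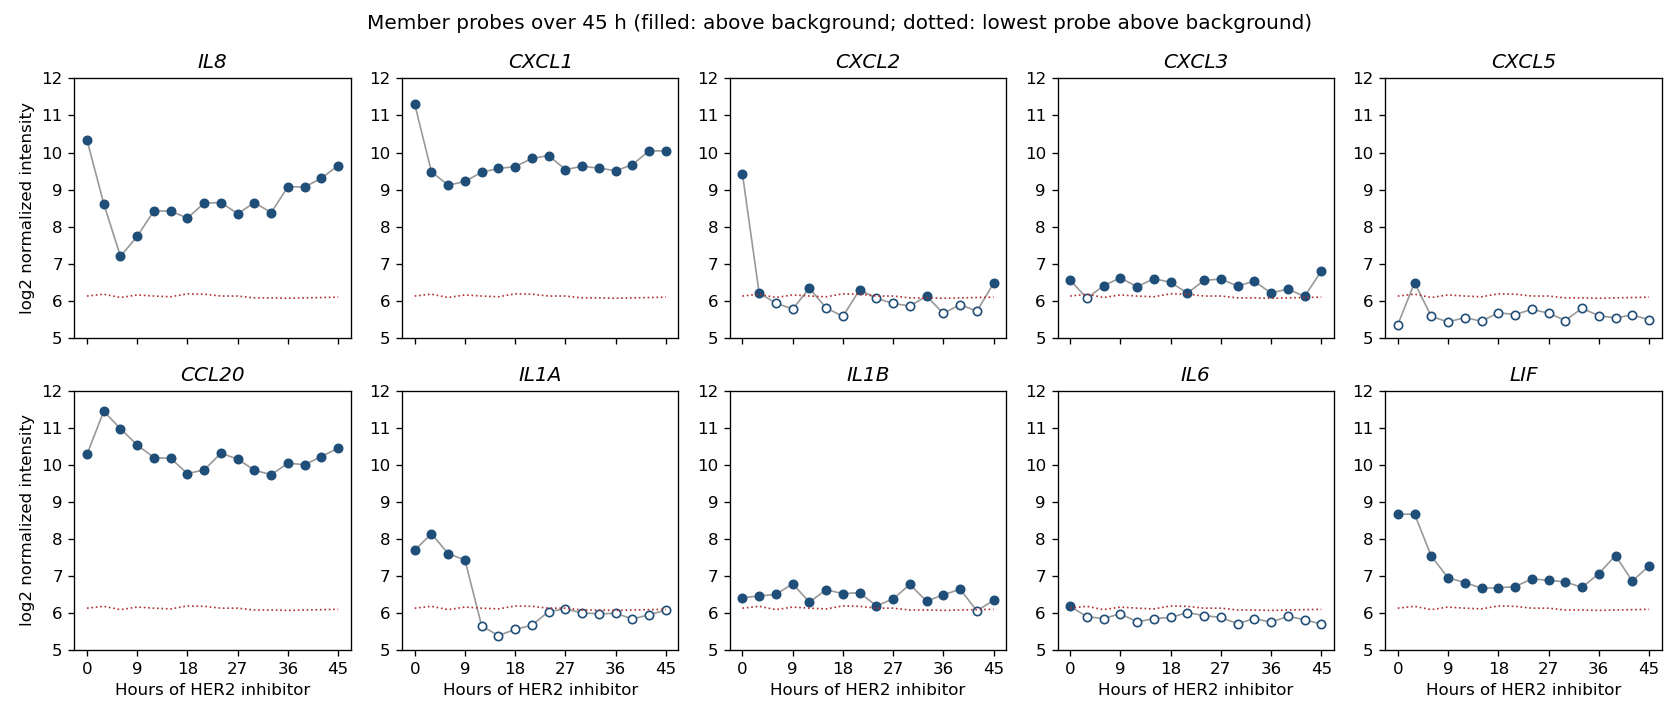
Log2 normalized intensity (vertical axis) of the 10 genes against hours of inhibitor (horizontal axis), 1 array per point. Filled points were above background, open points were not, and the dotted line is the dimmest probe above background on each array. IL8, CXCL1 and CXCL2 were highest at 0 h, CCL20 and IL1A at 3 h, and CXCL3 and IL1B stayed near the dotted line.

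The genes of the CXC chemokines lie in 1 cluster on chromosome 4, where CXCL5, CXCL3 and CXCL2 are direct neighbours among the protein-coding genes of RefSeq GRCh38.p14. The upstream sequences of the CXC genes that were above background on several arrays are shown, with that of CCL20, whose course in the first hours differed. Whether the sequences bear on the courses was not tested. Each sequence is from RefSeq GRCh38.p14, runs 5′ to 3′ on the gene's strand and covers the 250 bases before the start of transcription. Capitals mark matches to the NF-kappaB consensus, to the shorter string GGAATTTCC, which was added after the consensus had been searched, and to TATAAA. The windows are chr4:73740319-73740568 (plus strand) for IL8, chr4:73869143-73869392 (plus) for CXCL1, chr4:74099196-74099445 (minus) for CXCL2, chr4:74038690-74038939 (minus) for CXCL3 and chr2:227813592-227813841 (plus) for CCL20.
IL8: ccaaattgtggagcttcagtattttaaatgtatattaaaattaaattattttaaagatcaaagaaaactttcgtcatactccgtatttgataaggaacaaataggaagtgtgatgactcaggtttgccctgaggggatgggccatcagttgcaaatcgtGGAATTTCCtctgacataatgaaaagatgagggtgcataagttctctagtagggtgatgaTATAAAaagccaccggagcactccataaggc
CXCL1: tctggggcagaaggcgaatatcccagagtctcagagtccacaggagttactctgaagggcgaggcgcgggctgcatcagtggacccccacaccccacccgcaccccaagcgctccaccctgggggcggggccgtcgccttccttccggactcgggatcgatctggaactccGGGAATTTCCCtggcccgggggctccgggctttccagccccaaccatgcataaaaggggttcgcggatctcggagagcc
CXCL2: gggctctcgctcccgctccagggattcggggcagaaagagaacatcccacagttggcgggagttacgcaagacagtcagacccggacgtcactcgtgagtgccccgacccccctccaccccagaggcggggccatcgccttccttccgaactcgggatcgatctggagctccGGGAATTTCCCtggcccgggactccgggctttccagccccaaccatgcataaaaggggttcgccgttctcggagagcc
CXCL3: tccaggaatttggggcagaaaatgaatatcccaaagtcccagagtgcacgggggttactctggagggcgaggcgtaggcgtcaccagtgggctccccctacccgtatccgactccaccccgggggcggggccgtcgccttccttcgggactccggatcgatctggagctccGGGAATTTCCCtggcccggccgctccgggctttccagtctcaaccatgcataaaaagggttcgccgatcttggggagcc
CCL20: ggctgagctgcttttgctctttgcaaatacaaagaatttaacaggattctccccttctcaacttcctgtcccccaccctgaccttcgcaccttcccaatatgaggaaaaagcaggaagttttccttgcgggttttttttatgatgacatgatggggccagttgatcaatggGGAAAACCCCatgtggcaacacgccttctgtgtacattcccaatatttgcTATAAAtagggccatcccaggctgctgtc

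In the 250-base windows of 9 of the 10 genes, the NF-kappaB consensus was present for 6 genes (CXCL1, CXCL2, CXCL3, CXCL5, CCL20 and IL6), against 5.21% of the 35116 windows of all genes. GGAATTTCC was present for 5 genes, the 5 CXC chemokines, against 0.413% of all windows. This string was added after the consensus had been searched in these windows, so its share is a description and adds no support. The 5 genes are closely related, so their matches are not independent. In CXCL1, CXCL2, CXCL3 and CXCL5 the string lay inside the consensus match, which in these genes reads on both strands. It began 78 bases before the start in CXCL1 and CXCL3, 77 in CXCL2, 90 in CXCL5 and 91 in IL8. TATAAA was present for IL8, CCL20 and IL1A (10.7% of all windows), TGANTCA, the AP-1 motif, for IL8 and IL1A (6.57%), and GGGCGG for CXCL1 and CXCL3 (42.6%). Both strands were searched, and a match describes the letters only. CXCL3 carries the same string at the same distance as CXCL1, and its level stayed near background. What part the matches have in the levels of the genes was not tested.

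**Figure D2:**
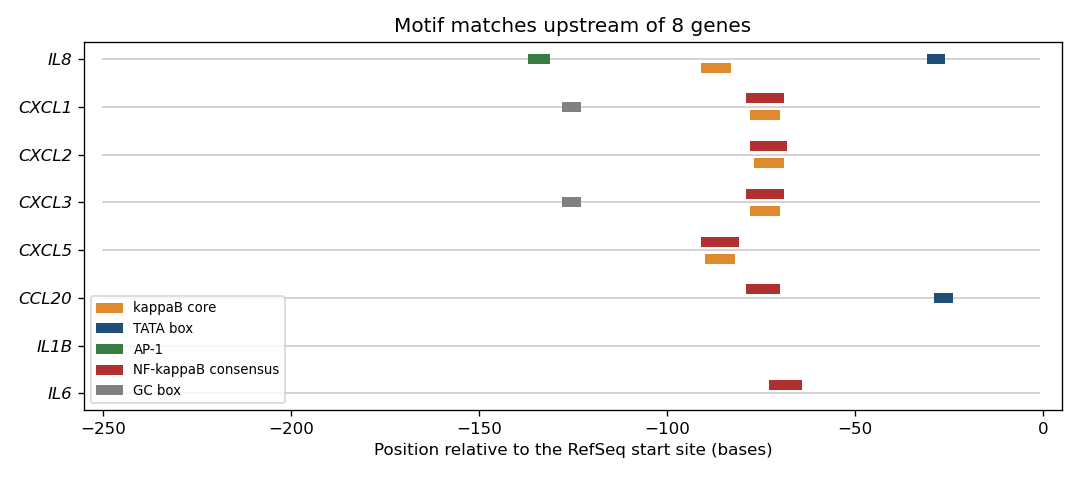
Positions of motif matches (coloured bars) in bases before the start site (horizontal axis) for 8 genes (vertical axis), to scale. IL1A, which has 2 start sites in the table, is not drawn. The NF-kappaB matches of CXCL1, CXCL2 and CXCL3 begin 79, 78 and 79 bases before the start.

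IL8, the main neutrophil attractant of epithelial cells, had its highest level at 0 h, fell until 6 h and then climbed back over the rest of the series. Its deposited intensity was 1370 at 0 h, 537 at 3 h, 330.3 at 6 h and 391 at 9 h, with a median of 556 over the 16 arrays. On the log2 scale it went from 10.34 at 0 h to 8.62 at 3 h and 7.20 at 6 h, an 8.82-fold difference between the highest and lowest arrays. From 12 to 33 h it lay between 8.23 and 8.65, and from 36 to 45 h between 9.07 and 9.65, the last time point being the highest after 0 h. The 4 arrays from 36 to 45 h were all above the 8 arrays from 12 to 33 h, and still below the untreated array. In a bulk sample, a change in the share of cells that express a gene and a change in its RNA per cell cannot be told apart.

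CXCL1, which acts on the same receptors, moved less than IL8 after the first array. Its intensity was 2531 at 0 h, 825 at 3 h and 727 at 6 h, the lowest value, and the median was 978. The log2 level went from 11.31 at 0 h to 9.48 at 3 h and 9.12 at 6 h, a 4.56-fold difference between the highest and lowest arrays. Without the 0 h array the whole range of CXCL1 was 1.90-fold, with a later high of 10.05 at 42 h. IL8 and CXCL1 moved alike over the 16 arrays (Pearson r = 0.86, Spearman rho = 0.76), and r was 0.75 without the 2 arrays at which IL8 was farthest from its median.

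CXCL2, a close relative of CXCL1, was bright on the untreated array and close to background on every other. Its intensity was 818 at 0 h and 245.4 at 3 h, and from 6 to 45 h it lay between 190.7 and 254.9. At 3, 12, 21, 33 and 45 h it was above background, at levels of 6.13 to 6.47 against 9.43 at 0 h. The untreated array was 9.28-fold above the 3 h array, and at least 10.1-fold above the 6 h array, where CXCL2 was not above background. Among 11957 tested rows CXCL2 had the largest excess of the 0 h array over its highest later array (2.95 on the log2 scale), while for CXCL1 (1.26) the rank was 13 and for IL8 (0.69) it was 65. All 3 of these excesses rest on 1 array, which has no replicate in the series.

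CXCL3 and CXCL5 completed the group near background. CXCL3 lay between 6.07 at 3 h and 6.80 at 45 h, a range of 0.73 against a median range of 0.91 over all tested rows, and its 0 h level was 6.56. CXCL5 was not above background on 15 arrays, and at 3 h its intensity was 263.8 (log2 6.49) against 176.6 at 0 h, at least 1.29-fold higher at 3 h. The probe sequences were not used here, so whether probes of these closely related genes detect each other's messages was not tested.

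CCL20, the ligand of CCR6, took another course, with its peak at 3 h. Its intensity was 1325 at 0 h, 2685 at 3 h, 2105 at 6 h and 1626 at 9 h, and the median over the series was 1331. The log2 level was 1.17 higher at 3 h than at 0 h, which is 2.24-fold, and then went down to 9.76 at 18 h and to its lowest value of 9.73 at 33 h. The peak was 3.27-fold above that lowest array, and the level at 45 h (10.45) was close to that at 0 h (10.28). CCL20 did not follow IL8 over the 16 arrays (r = -0.18, rho = 0.04) or CXCL1 (r = -0.16, rho = -0.21). With LIF the values were r = 0.66 and rho = 0.65, and r was 0.33 without the 2 arrays at which CCL20 was farthest from its median, so that relation rests on those arrays. It was 0.83 without the 0 h array. Neighbouring time points are not independent samples, and no p is given for these correlations.

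IL1A, which encodes a cytokine released by stressed or damaged epithelium, was above background at 0, 3, 6 and 9 h and on no later array. Its intensities were 378 at 0 h, 434 at 3 h, 376 at 6 h and 353 at 9 h, and from 12 to 45 h they lay between 177.2 and 223.9. The log2 level was 7.43 at 9 h and 5.65 at 12 h, so the step between those neighbouring arrays was at least 2.46-fold. The 3 h array was at least 4.07-fold above the lowest one, at 15 h. The 4 early arrays and the 12 later arrays did not overlap.

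IL1B, the neighbouring gene on chromosome 2 and the IL-1 form secreted by activated myeloid cells, stayed near background. Its log2 level lay between 6.06 at 42 h and 6.79 at 9 h, a range of 0.73, with intensities of 216.4 to 292.8. The arrays at 6 and 9 h lay above those at 0 and 3 h, but the difference was not called.

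LIF, a member of the IL-6 family that signals through LIFR and gp130, was high on the first 2 arrays alike. Its intensities were 558 at 0 h, 549.7 at 3 h, 366.5 at 6 h and 305.5 at 9 h, and the median was 286. The log2 level was 8.66 at 0 h and 8.67 at 3 h, then 7.53 at 6 h and 6.95 at 9 h, and it reached its lowest value of 6.67 at 15 h, 3.99-fold below the peak. Later levels ran from 6.68 at 18 h to 7.55 at 39 h, below every array of the first 2 time points. LIF was thus still at its highest level at 3 h, where IL8, CXCL1 and CXCL2 were already below their 0 h levels.

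IL6, the founding member of that family, was above background at 0 h only, with an intensity of 247.9 (log2 6.18), and from 3 to 45 h its log2 level lay between 5.70 and 6.01. The 0 h array was at least 1.06-fold above the lowest array, so hardly above the dimmest detectable probe. Neither IL6 nor CXCL5 was tested.

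The whole course was tested first, with a smooth curve of time fitted by limma to all 11957 rows above background on at least 3 arrays. Of the 8 genes tested, 5 had a time-dependent course, against 54.7% of all rows, so the share of the 8 genes (62.5%) was close to that of the array. They were LIF (adjusted p = 9.7e-06), IL1A (3.5e-05), CXCL2 (0.010), CCL20 (0.011) and IL8 (0.033). IL1A had to differ by the way it passed the filter, so its call adds no support. CXCL1 (0.19), IL1B (0.73) and CXCL3 (0.91) were not called. Without the 0 h array CXCL2 lost its call (adjusted p = 0.84) and CXCL1 gained one (0.010), as it did with a curve of 5 degrees of freedom (6e-04). The CCL20 call was lost with median scaling (0.087). The IL8 call was also lost when the array at 9, 42 or 45 h was left out (adjusted p of 0.053 to 0.072).

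The first step, 6 and 9 h against 0 and 3 h, asks which genes moved within the first hours of treatment. The log2 change was -2.01 ± 0.34 (SE) for IL8, -1.43 ± 0.21 for LIF and -1.22 ± 0.34 for CXCL1. In these and in CXCL2 the 2 later arrays lay below the 2 earlier ones. The adjusted p from limma was 0.00025 for IL8, 5.3e-05 for LIF, 0.013 for CXCL1 and 0.017 for CXCL2. Thus 4 of 8 genes were lower, where 11.1% of all tested rows were, and 0 were higher, where 13.5% were. The median change of the 8 genes was -0.81, and that of all tested rows was -0.01. The bound for CXCL2, not above background at 6 and 9 h, was at least 3.23-fold.

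The untreated array carried much of that step for the CXC chemokines. With that array left out, the change was -0.30 for CXCL1, -1.15 for IL8 and -1.44 for LIF. Only the 3 h array then stood against 6 and 9 h. CXCL1 and CXCL2 lost their calls, while IL8 and LIF were still called. No size is given for CXCL2, which was not above background at 6 or 9 h. Without the 3 h array the change was larger for IL8 (-2.88) and CXCL1 (-2.14). IL8 was not called when only the arrays compared were fitted (-2.01, adjusted p = 0.055). IL1A, with a change of -0.40 ± 0.17 in all arrays (adjusted p = 0.092), was called without the 0 h array (-0.63, adjusted p = 0.031). Leaving out the 6 h array kept the size of the CXCL1 change (-1.17) but not its call, and so did leaving out the 9 h array (-1.27). CXCL2 also lost its call in each of these fits. CCL20 (-0.11 ± 0.27), CXCL3 (0.20 ± 0.21) and IL1B (0.21 ± 0.21) were not called, and for CCL20 this window joins its 0 h level with its 3 h peak. The change of CCL20 was -0.69 without the 0 h array (adjusted p = 0.050, not called) and 0.47 without the 3 h array, so its sign rests on those arrays.

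**Figure D3:**
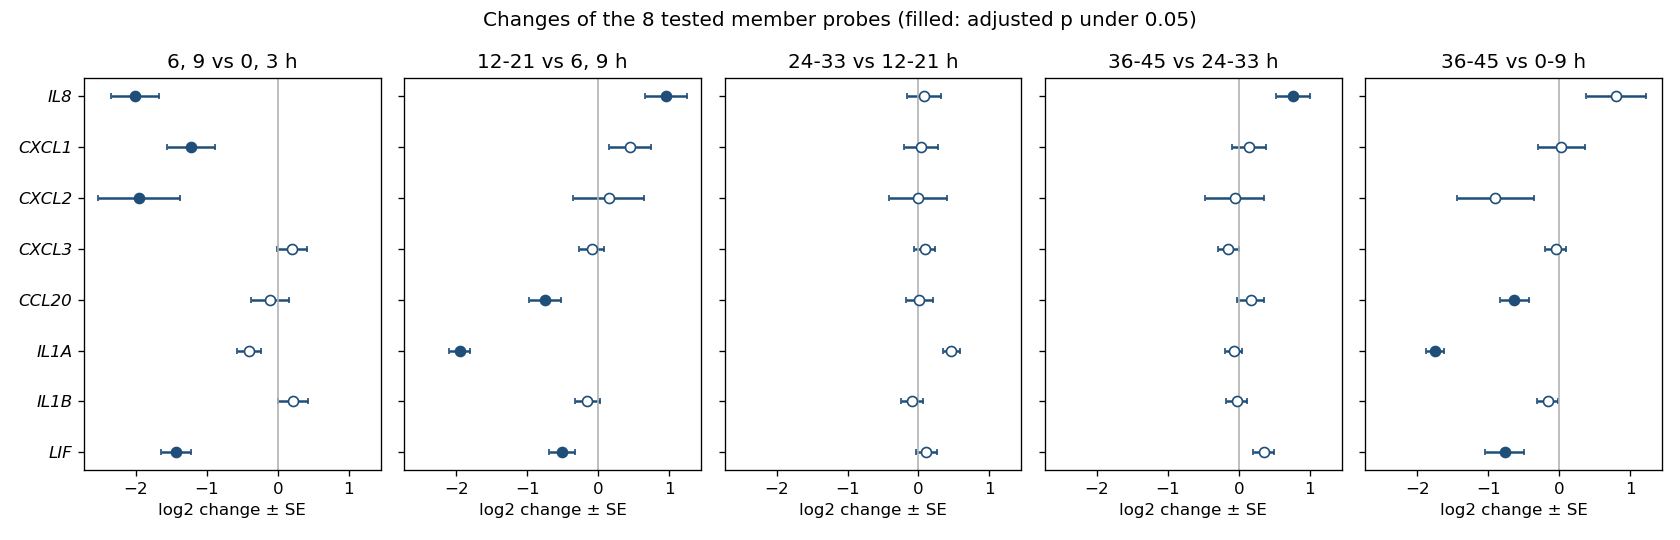
Log2 change with its standard error (horizontal axis) of the 8 tested genes (vertical axis) in 5 comparisons of time windows, filled where the adjusted p was under 0.05. In the first panel IL8, CXCL1, CXCL2 and LIF lie to the left of 0, and in the third panel no gene is filled.

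The second step compared 12 to 21 h with 6 and 9 h. IL1A was at least 2.57-fold lower, above background on both earlier arrays and on none of the 4 later ones, a difference that its way through the filter fixed. CCL20 fell by 0.75 ± 0.23 (0.023), and LIF fell by 0.51 ± 0.18 (0.042). IL8 rose by 0.96 ± 0.30 (0.022), all 4 later arrays lying above the earlier 2. So 3 of 8 genes were lower and 1 was higher, against 12.6% and 12.8% of all tested rows, and IL1A, 1 of the 3, adds no support. Without the 6 h array the calls of IL8 (0.69, adjusted p = 0.26), CCL20 (-0.54, 0.27) and LIF (-0.22, 0.54) were lost, and that of CCL20 also without the 18 h array (0.057). That of LIF was lost in 6 of the 16 fits that left out an array, with an adjusted p of 0.052 to 0.54. CXCL1, at 0.45 ± 0.30 (0.29), gained a call without the 0 h or the 3 h array (0.027 each).

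No gene was called between 24 to 33 h and 12 to 21 h, where limma called 8 rows of the whole array (0.0669%). IL1A was the only gene of the 8 with an unadjusted p under 0.05 (unadjusted p = 0.00094, adjusted p = 0.27). It was not above background in either window, so the size of its change is not given. The 6719 single-probe rows that were never above background also shifted between these windows before normalization, from a median intensity of 184.2 at 12 to 21 h to 172.5 at 24 to 33 h. Their median was 181.9 at 21 h and 169.0 at 24 h. It was then 178.9 at 33 h, 179.2 at 36 h and 160.4 at 45 h, so there was no single lasting step. After normalization their median log2 level was 5.50 in both windows. The part of that shift in the IL1A values was not tested.

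In the last step, 36 to 45 h against 24 to 33 h, IL8 rose by 0.77 ± 0.24 (adjusted p = 0.014), from a window mean of 8.51 ± 0.17 (SD of 4 arrays) to 9.28 ± 0.27, and the windows did not overlap. It was 1 of 8 genes called higher, against 22.6% of all tested rows, and 0 were lower, against 22.7%. Without the 45 h array the adjusted p for IL8 was 0.052. LIF, with a change of 0.35 ± 0.15 (0.056), was called without the 6, 9 or 42 h array (0.018 to 0.035). CXCL1 (0.15 ± 0.24), CCL20 (0.17 ± 0.19), CXCL3 (-0.15 ± 0.15) and IL1B (-0.03 ± 0.15) were not called.

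Over the whole period, 36 to 45 h against 0 to 9 h, IL1A was at least 3.10-fold lower, which its way through the filter fixed. LIF fell by 0.77 ± 0.28 (0.047), and CCL20 fell by 0.63 ± 0.20 (0.024). These were 3 of 8 genes, IL1A adding no support, against 15.0% of all tested rows called lower, and 0 were higher, against 16.2%. IL8, with 0.80 ± 0.42 (0.16), and CXCL1, with 0.03 ± 0.33 (0.95), were called higher once the 0 h array was left out (1.43, adjusted p = 0.00014, and 0.54, adjusted p = 0.0063). The LIF call was lost in 13 of the 16 fits that left out an array (adjusted p of 0.055 to 0.16). The CCL20 call was lost without the array at 3, 6, 36 or 39 h (0.060 to 0.083) and with median scaling (0.073). It was also lost with only the arrays compared (0.075) and with 42 and 45 h set against 0 and 3 h (0.15). CXCL2, above background on 1 of the 4 late arrays, was not called (adjusted p = 0.22, and 0.91 without the 0 h array), but it was called lower with 42 and 45 h set against 0 and 3 h (0.034). Over this period the rows never above background also shifted before normalization, from a median intensity of 187.8 at 0 and 3 h to 170.2 at 36 to 45 h. The part of that shift was not tested.

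The receptors of these ligands were mostly at background in the same cells. IL8RA, the CXCR1 gene, was above background on 0 arrays, IL8RB, the CXCR2 gene, on 2, and CCR6 and the chemokine-binding receptor DARC on 0. IL1R1, the signalling receptor of both IL-1 forms, was above background on all 16 arrays and rose by 0.79 ± 0.19 at 36 to 45 h against 24 to 33 h (adjusted p = 0.0017). IL1RAP, its partner chain, was above background on 11 arrays with 1 probe. The decoy receptor IL1R2, on a row that joins several probes, was above background on 9 arrays. It was called higher at 12 to 21 h against 6 and 9 h, where it was not above background, and lower at 36 to 45 h, where it was above background on 1 array, so no size is given. IL1R2 passed the filter only with arrays from 12 to 33 h, where it was highest, so these calls add no support. IL6R was above background on 13 arrays with 1 probe and 2 with the other, LIFR on 0, and both probes of IL6ST, the gp130 gene, on 0. A probe at background does not show that a message is absent.

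Of 11 probes tested for receptors and antagonists, 1 was higher and 1 lower at 6 and 9 h, 2 and 2 in the second step, 3 and 1 in the last step, and 3 and 1 over the whole period. The shares of all tested rows called higher and lower were 13.5% and 11.1%, 12.8% and 12.6%, 22.6% and 22.7%, and 16.2% and 15.0% in these comparisons. CMKOR1, the CXCR7 gene, was above background at 0, 3 and 6 h only and passed the filter through these arrays, so its later calls add nothing. OSMR was the probe higher at 6 and 9 h and was among those lower in the second step. It was above background on 4 arrays and passed the filter only with those at 6 and 9 h, its highest, so its calls add no support. The IL1R2 calls are among the counts of the second and last steps. CXCR4, the receptor of another chemokine, CXCL12, is named after its values were seen: its single-probe row was highest at 0 h (intensity 911, log2 9.64) and lowest at 6 h (5.56), where it was not above background. It was called lower at 6 and 9 h (adjusted p = 0.0038) and higher in the second step (0.0016), with no size given since both arrays lay below the dimmest probe above background, and without the 0 h array 0 of 10 probes of the list were lower at 6 and 9 h, against 7.20% of all rows.

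Genes of the NF-kappaB pathway and genes that it induces were read as a list of their own. In the first step 11 of 25 probes tested were lower and 0 higher, against the 11.1% and 13.5% given above, with a median change of -0.46. Among them were the feedback inhibitor TNFAIP3 (-1.37 ± 0.32, 0.0034), the subunit RELB (-1.12 ± 0.34, 0.021) and the survival gene BIRC3, on a row that joins several probes. These 3 had the widest ranges of window means in the list. BIRC3 was flagged above background at 0, 24 and 33 h only, and no size is given. It passed the filter only with the 0 h array, its highest, so its call adds no support. On such a row the flag need not mark a value at background. At 6 h BIRC3 was at 8.25, and the dimmest probe above background was at 6.09. TNFAIP3 had its highest level at 0 h (9.76), as IL8 and CXCL1 did, and RELB at 3 h (9.82), as CCL20 did. In the second step 2 probes were higher and 4 lower, in the third 1 was called, in the last 6 were higher and 4 lower, and over the whole period 1 was higher and 8 lower, where the shares of all rows were 12.8% and 12.6%, 0.0669%, 22.6% and 22.7%, and 16.2% and 15.0%. Without the 0 h array, a setting chosen after the data were seen, 5 of 23 probes were lower at 6 and 9 h, RELB among them, against 7.20% of all rows in that fit. BIRC3 was then above background on too few arrays to be tested.

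Regulators of AU-rich message decay, which shorten or lengthen the life of chemokine messages, included 2 of 7 probes lower in the first step and 0 higher, against 11.1% and 13.5% of all rows. ZC3H12A, an RNase for IL6 messages, fell by 1.17 ± 0.18 (7.8e-05), and ZFP36, which binds AU-rich elements, fell by 0.66 ± 0.16 (0.0042), both from their highest level at 0 h. Leaving out the 0 h array left 1 of 7 probes lower, ZC3H12A, against 7.20% of all rows. In the second step 0 were higher and 2 lower (12.8% and 12.6% of all rows), in the last step 3 higher and 1 lower (22.6% and 22.7%), and over the whole period 0 higher and 1 lower (16.2% and 15.0%). MAPKAPK2, a kinase that stabilizes such messages, fell by 0.43 ± 0.11 in the second step (0.0062) and rose by 0.38 ± 0.09 in the last (0.0015).

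Downstream of the IL-6 family, 2 of 8 probes were lower and 0 higher in the first step (11.1% and 13.5% of all rows), and 1 was higher and 2 lower in the second (12.8% and 12.6%). In the last step 2 were higher and 1 lower (22.6% and 22.7%), and over the whole period 1 was called in each direction (16.2% and 15.0%). The kinase PIM1, a STAT3 target, fell by 1.10 ± 0.13 (4.9e-06) and rose by 0.98 ± 0.09 at 36 to 45 h (7.2e-08). SOCS1, a feedback inhibitor, fell by 0.77 ± 0.18 in the second step (0.0040). PTPN11, a phosphatase of the receptor complex, rose by 0.57 ± 0.10 in that step (0.00043). Only PIM1, 1 of 8 probes, was lower at 6 and 9 h when the 0 h array was left out, against 7.20% of all rows.

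**Figure D4:**
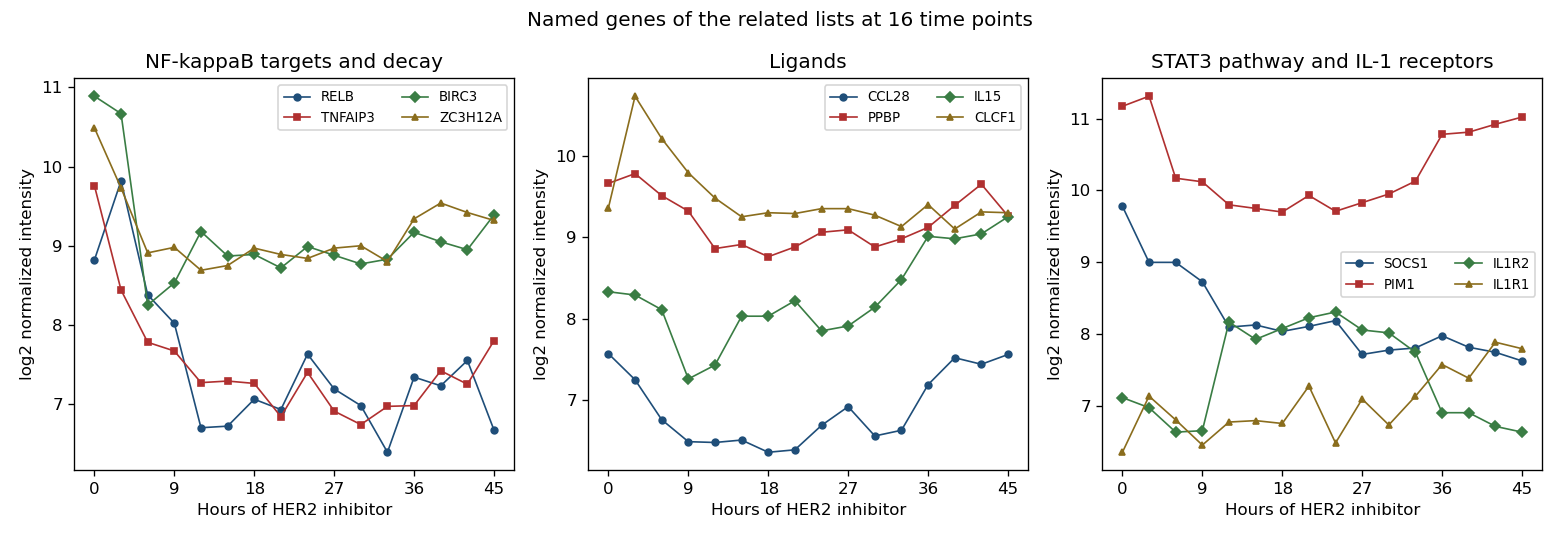
Log2 normalized intensity (vertical axis) against hours of inhibitor (horizontal axis), 1 array per point, for 4 genes of the NF-kappaB and decay lists, 4 ligands, and 4 genes of the STAT3 and receptor lists. The BIRC3 and IL1R2 rows join several probes. TNFAIP3, BIRC3 and ZC3H12A start at their highest level, RELB and CLCF1 peak at 3 h, and PIM1, IL15 and CCL28 rise after 33 h.

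Among other chemokine ligands 10 of 33 probes were tested, and 21 were never above background. In the first step 1 was higher and 2 lower (13.5% and 11.1% of all rows), in the second 0 and 4 (12.8% and 12.6%), in the last 4 and 0 (22.6% and 22.7%), and over the whole period 0 and 0 (16.2% and 15.0%). CCL28, a mucosal chemokine on a row that joins several probes, fell by 0.78 ± 0.18 in the first step (0.0030) and rose by 0.73 ± 0.13 in the last (9.6e-05). PPBP, which lies in the CXC cluster, fell by 0.56 ± 0.13 in the second step (0.0031) and rose by 0.35 ± 0.10 in the last (0.0089), and CCL7 rose by 0.65 ± 0.10 in the last (1.6e-05). Without the 0 h array 0 of 9 probes of this list were lower in the first step, against 7.20% of all rows.

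Among other inflammatory cytokines 13 of 40 probes were tested. In the first step 1 was higher and 0 lower (13.5% and 11.1% of all rows), in the second 1 and 1 (12.8% and 12.6%), in the last 2 and 0 (22.6% and 22.7%), and over the whole period 2 and 1 (16.2% and 15.0%). IL18, an IL-1 relative, was far brighter than background at every time point and rose by 0.47 ± 0.07 in the last step (1.9e-05). IL15, which sustains lymphocytes, rose by 0.97 ± 0.18 (0.00021) in that step. CLCF1, a gp130 ligand like LIF, peaked at 3 h (10.73) and was lower over the whole period (-0.74 ± 0.19, 0.0072). Without the 0 h array 1 of 13 probes, CLCF1, was lower at 6 and 9 h, against 7.20% of all rows.

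**Figure D5:**
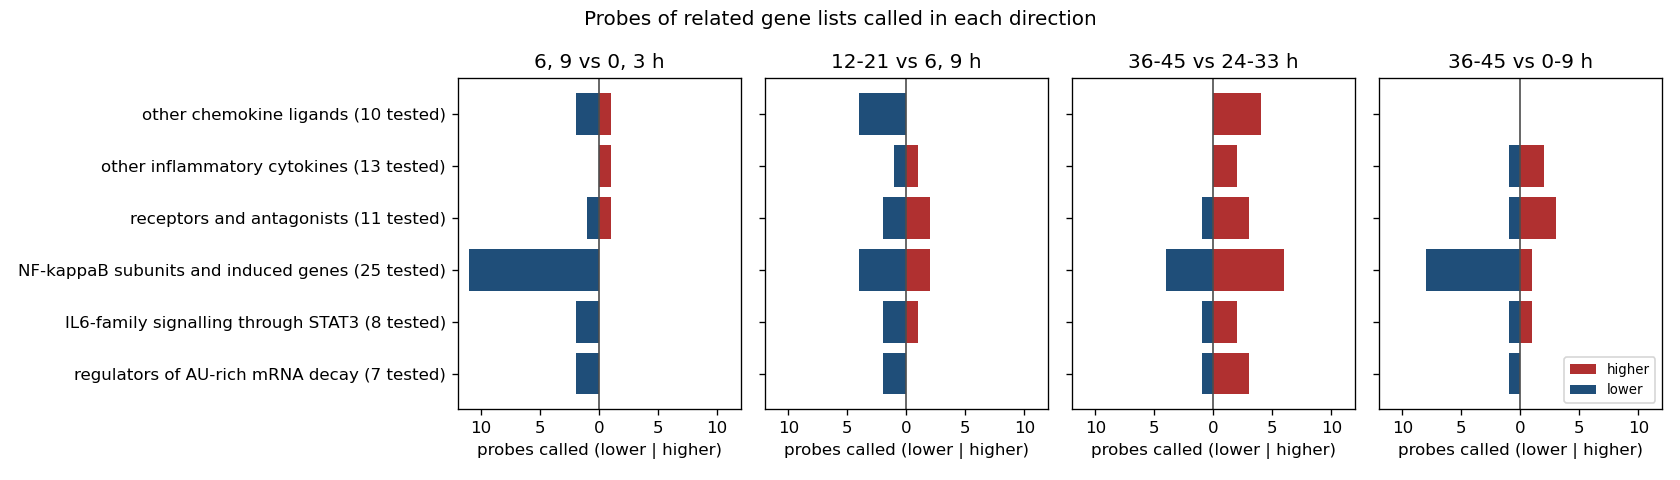
Number of probes (horizontal axis) of 6 gene lists (vertical axis, with the number tested) called lower (blue, to the left) or higher (red, to the right) in 4 comparisons. The longest bar is that of the NF-kappaB list at 6 and 9 h, with 11 probes lower and 0 higher.

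The rows most like each of the 4 genes above background on all arrays were found by Pearson's r over the 16 arrays, as a description. For IL8 they were TRIM2 (r = 0.945), HERPUD1 (0.942) and HOXC6, on a row that joins several probes (0.929), each highest at 0 h. For CXCL1 they were ZBTB8OS (0.916), VGLL3 (0.914) and DDIT3 (0.909), and without the 0 h array r was 0.76, 0.83 and 0.65. ZBTB8OS was above background on 7 arrays and VGLL3 on 8, so their correlations rest in part on values at background. The joined HOXC6 row was flagged above background on 7 arrays. Its level was nevertheless 8.75 at 9 h, where the dimmest probe above background was at 6.16. DDIT3, a stress-response factor, went from 11.36 at 0 h to 8.59 at 3 h and 7.66 at 6 h. CXCL1 went from 11.31 to 9.48 and 9.12 at these times. For CCL20 they were MGC14376 (0.937), RASSF7 (0.928) and CLCF1 (0.916), all highest at 3 h, with r of 0.92 to 0.96 without 0 h. For LIF they were the heme-degrading enzyme HMOX1 (0.959), C12orf57 (0.953) and the stress gene GADD45A (0.950), and HMOX1 went from 10.83 at 3 h to 8.18 at 6 h and 6.79 at 9 h.

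Markers of the cell types in the culture were read on the same arrays. Of 14 probes for mammary basal epithelium 9 were above background on all arrays, led by KRT5 with a mean intensity of 34255, and of 9 for epithelium 7 were, led by KRT18 (18317). KRT14 was above background on 1 array. For fibroblasts 0 of 10 probes, and for endothelium 0 of 6, were above background on all arrays, though PECAM1 (302) and KDR, of the endothelial list, were on 15. For leukocytes 4 of 14 were, CD68 (1079), CSF1R, CD2 and ITGAX, while CD3E was never above background and the 3 probes of PTPRC, which encodes CD45, were above background on 5, 2 and 0 arrays. The summed leukocyte intensity above background was 1746 to 2060 from 0 to 33 h and 2383 to 2936 from 36 to 45 h, the window in which IL8 rose, and its part in that rise was not tested. In the first step the basal list had 6 of 12 probes higher and 0 lower, the epithelial list 0 and 1 of 8, the leukocyte list 1 and 1 of 6, and the fibroblast and endothelial lists 0 and 0 of 1 and of 2, against 13.5% and 11.1% of all rows. In the second step the counts higher and lower were 1 and 5 for the basal list, 0 and 2 for the epithelial, 1 and 0 for the leukocyte, 0 and 0 for the fibroblast and 1 and 0 for the endothelial list, against 12.8% and 12.6%. Over the whole period they were 5 and 2, 1 and 2, 3 and 1, 0 and 0, and 1 and 0 in the same order, against 16.2% and 15.0%. TP73L of the basal list and CD14 of the leukocyte list passed the filter only with arrays after 9 h, where they were highest. Their calls higher in the second step and over the whole period therefore add no support. In the last step the basal list had 7 higher and 3 lower, the epithelial list 3 and 1, the leukocyte list 3 and 0, and the fibroblast and endothelial lists 0 and 0, against 22.6% and 22.7%. The 3 leukocyte probes, named after their values were seen, were CSF1R (1.08 ± 0.08), CD14 (1.02 ± 0.14, above background on 12 arrays) and CD68 (0.38 ± 0.11). The other tested probes of that list were not called in the last step. They were CD2 (-0.07 ± 0.17), ITGAX (0.09 ± 0.13) and the PTPRC probe above background on 5 arrays.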

How the data were processed

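MCF10A cells under the inhibitor were measured on 16 single-colour arrays. The deposited intensity values are the authors' scanner summaries without normalization, and beside each the authors deposited a detection p-value, whose whole-multiple steps give 708 negative control bead types. Rows with such steps on every array (19092) hold a single probe, and 1497 join several. Background was corrected by normexp from the detection p-values, 16 was added, and values were quantile normalized and taken as log2 (limma 3.58.1, R 4.3.3). Rows with a detection p-value under 0.05 on at least 3 arrays (11957) were tested with limma: a smooth time curve (natural spline, 3 degrees of freedom), and contrasts of 4 windows (0-9, 12-21, 24-33 and 36-45 h) or 5 (0-3 and 6-9 h apart), with an intensity trend and Benjamini-Hochberg adjustment over all tested rows. A call is an adjusted p under 0.05. Windows of time points are not replicates, so these p-values measure the spread of neighbouring arrays, and the number of arrays limits the precision. The tests were checked on simulated data. Named genes were the 10 genes, the 3 rows most correlated with each gene above background on all arrays, from each list the 3 genes called in the spline test with the widest range of window means, and receptors of the 10 genes. The genes and lists were chosen with earlier results of these data known. The alternatives tried left out the background correction, raised the offset to 50, scaled by medians or cyclic loess, and used other filters, variance priors and curves, only the arrays compared, other windows, and each array left out in turn. All 10 symbols matched RefSeq GRCh38.p14 genes, and 9 its promoter table.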

Additional observations from a re-analysis of the deposited data

Results flagged for a closer look

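CXCL1 and CXCL2 stood apart at 0 h. In the window from 0 to 9 h the log2 level of CXCL1 at 0 h was 11.31, with the nearest of the other 3 arrays at 9.48, and that of CXCL2 was 9.43, with the nearest at 6.21. These were 2 of 40 windows looked at, and among replicates chance alone would mark about 1 in 20 in this way. The arrays of a window are different time points, not replicates, so a real early course and a deviating array cannot be told apart.

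CXCL5 was not tested, because it was above background on 1 array. On that array, at 3 h, its intensity was 263.8, against 176.6 on the untreated array.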

How the results depend on the processing

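Of the 8 tested genes, the number with a time-dependent course was 5. It was 3 among the 4 genes above background on all 16 arrays, where fewer genes were tested, and 1 (IL1A) with a straight line in time, where the share of all rows went from 54.7% to 16.3%. It was 6 with 5 degrees of freedom, where CXCL1 was added, and 4 with median scaling, where CCL20 was lost, and it ran from 4 to 5 when each array was left out in turn. At 36 to 45 against 0 to 9 h the number was 3, and it was 1 (IL1A) with median scaling and 1 (IL1A) with only the arrays compared (20.7% of all rows in place of 31.2%), with a range of 1 to 4 without single arrays. At 6 and 9 against 0 and 3 h it was 4, and 1 (LIF) with only the arrays compared, which leaves fewer arrays and took the share of all rows from 24.7% to 7.39%. It was 5 with an offset of 50 and 5 without an intensity trend, each adding IL1A (adjusted p of 0.046 and 0.048), and 3 with robust empirical Bayes, where CXCL2 was lost (0.063), with a range of 2 to 4 without single arrays. At 12 to 21 against 6 and 9 h it was 4, and 2 without background correction (CCL20 and IL1A) and 2 with robust empirical Bayes (IL1A and LIF), with a range of 1 to 5. At 24 to 33 against 12 to 21 h it was 0 under every alternative run. At 36 to 45 against 24 to 33 h it was 1, and 2 (IL8 and LIF) with cyclic loess, 2 with the filter on all 16 arrays and 2 without an intensity trend, with a range of 0 to 2. The cause was not tested where none is given. Of the values of single genes under the alternatives, 1113 stayed on their side of the threshold, 62 lost a call and 17 gained one. Values that were not called could change sign, as that of CCL20 at 6 and 9 h did, from -0.69 to 0.47. The fall of LIF at 6 and 9 h was called in 25 of 25 alternatives, and its fall over the whole period was not called in 19 of 26. Median scaling changed the balance of calls over all tested probes: the share of calls that were higher went from 51.8% to 73.1% at 36 to 45 against 0 to 9 h, from 54.9% to 65.1% at 6 and 9 h, from 50.4% to 70.8% at 12 to 21 h and from 49.8% to 37.3% at 36 to 45 against 24 to 33 h, and at 24 to 33 h from 12.5% of 8 calls to 84.1% of 44. Without background correction the log2 range of IL8 was 2.16 in place of 3.14 and that of LIF 1.05 in place of 2, both genes being above background on all arrays, so the size of these folds depends on that step. The whole log2 range was then 2.10 for CXCL2 and 1.34 for IL1A. As folds these were smaller than 2 bounds printed above. Those were 10.1-fold for CXCL2 (0 h against 6 h) and 4.07-fold for IL1A (3 h against 15 h).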
